A study of Homo sapiens with 4 samples.

Results

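The genes described here are the mitochondrial ribosomal protein genes, taken as every symbol of the gene table that begins with MRPL or MRPS followed by a digit. The rule found 78 of the 14416 genes in the table. All 78 are protein-coding, and none is a pseudogene copy. By the current nomenclature of the mitochondrial ribosome 51 belong to the large subunit and 26 to the small subunit, and MRPS30 and MRPS18A count with the large subunit despite their S symbols. The remaining symbol, MRPS36, now goes under the name KGD4 and belongs to the 2-oxoglutarate dehydrogenase complex. It was kept because the rule finds it, and it was counted in neither subunit.

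The cells were OMM2.3, an established human uveal melanoma line with wild-type genotype in the labels, held for 24 h with meclofenamic acid (MA) or with its solvent DMSO (NC). Meclofenamic acid is an anti-inflammatory drug that inhibits cyclooxygenases and also the m6A demethylase FTO. Each condition gave 1 input library of fragmented poly(A) RNA and 1 library of fragments pulled down with beads carrying an antibody to N6-methyladenosine (m6A), 4 libraries in all. No group had a replicate, so the differences below describe these libraries and carry no p-value and no SD.

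Mitochondria keep a ribosome of their own, which translates the few proteins encoded in mitochondrial DNA, all of them subunits of the respiratory chain and the ATP synthase. Its RNAs are mitochondrial transcripts, while all of its proteins are encoded in the nucleus, made in the cytosol and imported. Some have a counterpart in the bacterial ribosome, and the others were added during the evolution of mitochondria. Of the members, 46 are of the first kind and 31 of the second.

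Because the proteins assemble into one particle, the start regions of their genes were examined for shared letters. RefSeq promoter windows (GRCh38.p14, from 250 bases before the start site to 50 after it) were present for 70 members, with 86 windows in all. A gene counted as matched when any of its windows held the letters. The number of windows per gene in the other genes is not given here. The letters AAGATGGC, the core bound by the transcription factor YY1, occurred on either strand in 21 of 70 members (30.0%, exact 95% Clopper-Pearson interval 19.6 to 42.1%). They occurred in 4.66% of 15843 protein-coding genes with a window and in 7.14% of the 8629 other genes tested in the inputs. In 16 members the match lay on the gene's own strand between 7 and 36 bases after the start site. The following windows of 30 bases show it in members whose values are described below, written 5′ to 3′ on the gene's strand with the match in capitals.
MRPL20 (chr1:1407260-1407289, minus strand): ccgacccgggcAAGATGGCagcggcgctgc
MRPL42 (chr12:93467511-93467540, plus strand): aggattgaaacAAGATGGCgggttcgtggt
MRPL50 (chr9:101398577-101398606, minus strand): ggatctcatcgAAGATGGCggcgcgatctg
MRPL51 (chr12:6493223-6493252, minus strand): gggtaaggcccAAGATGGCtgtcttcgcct
MRPS7 (chr17:75261887-75261916, plus strand): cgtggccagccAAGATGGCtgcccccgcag
MRPS10 (chr6:42217834-42217863, minus strand): tcgggaccggcAAGATGGCggcgcggacag
MRPS18A (chr6:43687764-43687793, minus strand): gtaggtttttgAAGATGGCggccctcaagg
MRPS18B (chr6:30617852-30617881, plus strand): gggcgtacgtcAAGATGGCggcgtctgtat
MRPS24 (chr7:43869480-43869509, minus strand): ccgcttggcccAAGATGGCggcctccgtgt
MRPS30 (chr5:44808949-44808978, plus strand): aatcgcgggcaAAGATGGCggcggccaggt
The letters contain ATG, and how far they coincide with the first codon of these genes was not tested.

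The letters CCGGAAG, the core bound by ETS factors, occurred on either strand in 30 of the 70 members (42.9%, interval 31.1 to 55.3%). Their share was 16.5% among all protein-coding genes and 24.4% among the other tested genes. Both motifs occurred together in 8 members (11.4%, interval 5.07 to 21.3%). The share was 1.17% among all protein-coding genes with a window and 1.87% among the other tested genes. Whether the motifs go together more often than their single shares give was not tested. The palindromic core bound by NRF1, a factor known for nuclear genes of mitochondrial proteins, was found in a single member, MRPL17. Its share of 1.43% (interval 0.04 to 7.70%) stood beside 1.99% of all protein-coding genes and 2.85% of the other tested genes. This core was searched only as an exact run of letters longer than the other cores, so its share cannot be set beside theirs. The 3 motifs do not contain one another, and a match is only a run of letters in the reference.

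**Figure D1:**
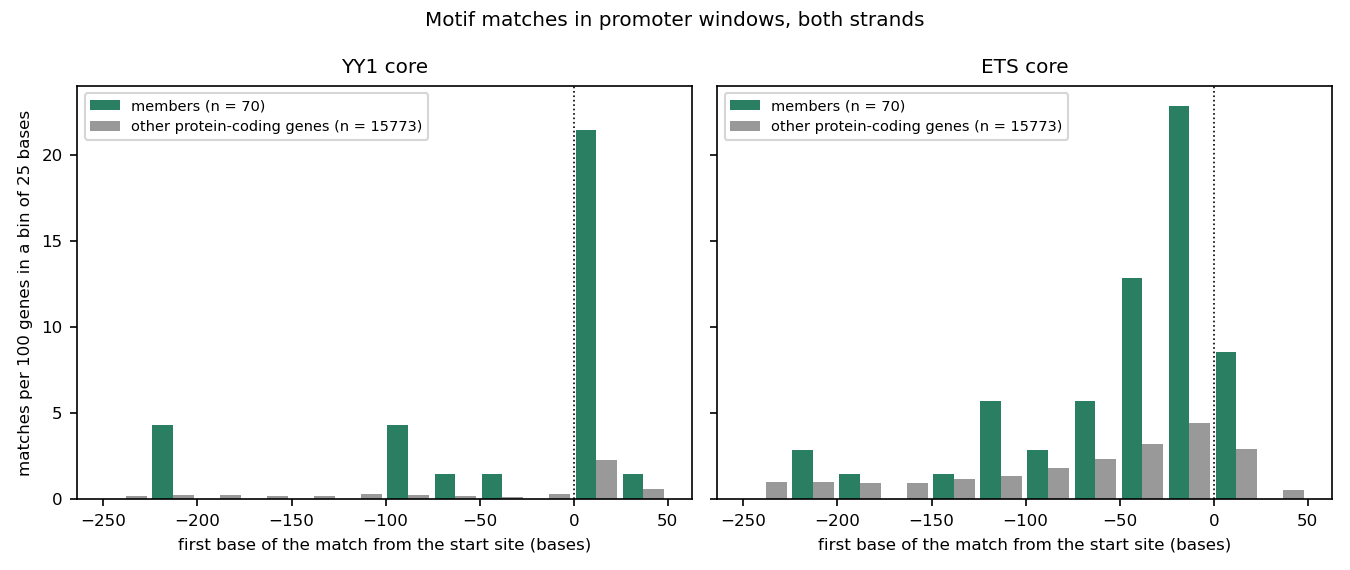
Matches per 100 genes (vertical axis) by distance from the start site in bins of 25 bases (horizontal axis, bases), for 70 members (green) and 15773 other protein-coding genes (grey). The YY1 core of the members is concentrated in the first 25 bases after the start site, where 15 matches fall, and the ETS core is most frequent in the bin just before it. In the other genes the same bins are the highest, with 358 matches of the YY1 core and 697 of the ETS core. A site that lies in overlapping windows of a gene can count more than once.

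Working back from FPKM gave a depth of 41630895 reads or read pairs for the MA input and 37041597 for the NC input. The 6 melanocyte markers checked were present in both inputs, as in PMEL, a melanosome matrix protein, at 4027 FPKM in NC and 1251 in MA, and all 6 were lower in MA. Over all genes, 10564 reached 1 FPKM in at least 1 input and were tested. FPKM is a share of the library per length, so fewer cells with a transcript and less of it per cell cannot be told apart, and neither can a change in total RNA. Of the 78 members, 77 were tested.

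The order of the members' levels was much alike in both inputs (Pearson's r of log2 levels 0.94, Spearman's rho 0.93, across 77 genes, which are not replicates). The median over the 77 tested members was 29.1 FPKM for NC and 31.6 for MA. Summed over the members the level was 3032 FPKM in NC and 2689 in MA, which is 0.754% and 0.706% of all FPKM of the input.

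By the mean of both inputs, the most abundant members of the small subunit were MRPS15 and MRPS34. MRPS15, a counterpart of bacterial S15, was at 121 FPKM in NC and 145 in MA. MRPS34, a mitochondria-specific protein needed for a stable small subunit, was at 136 FPKM in NC and 80.8 in MA. Thus MRPS34 headed the members in NC and MRPS15 in MA. MRPS18B, MRPS26 and MRPS7, the last a counterpart of bacterial S7 in the head of the subunit, followed by that mean, at 90.4, 64.0 and 58.1 FPKM in NC and at 66.6, 46.5 and 38.9 in MA.

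In the large subunit the 5 highest by the mean of both inputs were led by MRPL40, a mitochondria-specific protein, at 115 FPKM in NC and 99.99 in MA. MRPL12, the counterpart of the bacterial L7/L12 stalk protein that engages translation factors, was at 114 FPKM in NC and 76.9 in MA. MRPL37 was at 95.5 and 84.5 FPKM, MRPL33 at 89.2 and 81.6, and MRPL51 at 92.2 and 54.0, in NC and MA. All of these were lower in MA, by a small margin in MRPL33 and MRPL37 and by a larger one in MRPL12 and MRPL51.

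At the other end, MRPS24 was nearly absent, at 0.324 FPKM in NC and 0.0360 in MA, which corresponds to 8 and 1 recovered reads. RefSeq also holds a readthrough gene that joins URGCP to MRPS24, which is not among the genes of the table. How reads over the shared exons were assigned is not given in the sources used here, so the level of MRPS24 is uncertain. By the mean of both inputs the next lowest were MRPL42, at 1.99 FPKM in NC and 3.75 in MA, MRPL1, at 3.24 and 6.56, and MRPL50, at 3.71 and 5.39. MRPL42 had 1145 recovered reads in NC and 2429 in MA over a recovered length of 15560 bases, the longest of the members, so its low level per length does not reflect few reads. In the small subunit MRPS33, at 5.64 and 6.22 FPKM, and MRPS17, at 9.16 and 8.81 FPKM in NC and MA, had the lowest mean of both inputs besides MRPS24. Low levels were thus found in both subunits.

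**Figure D2:**
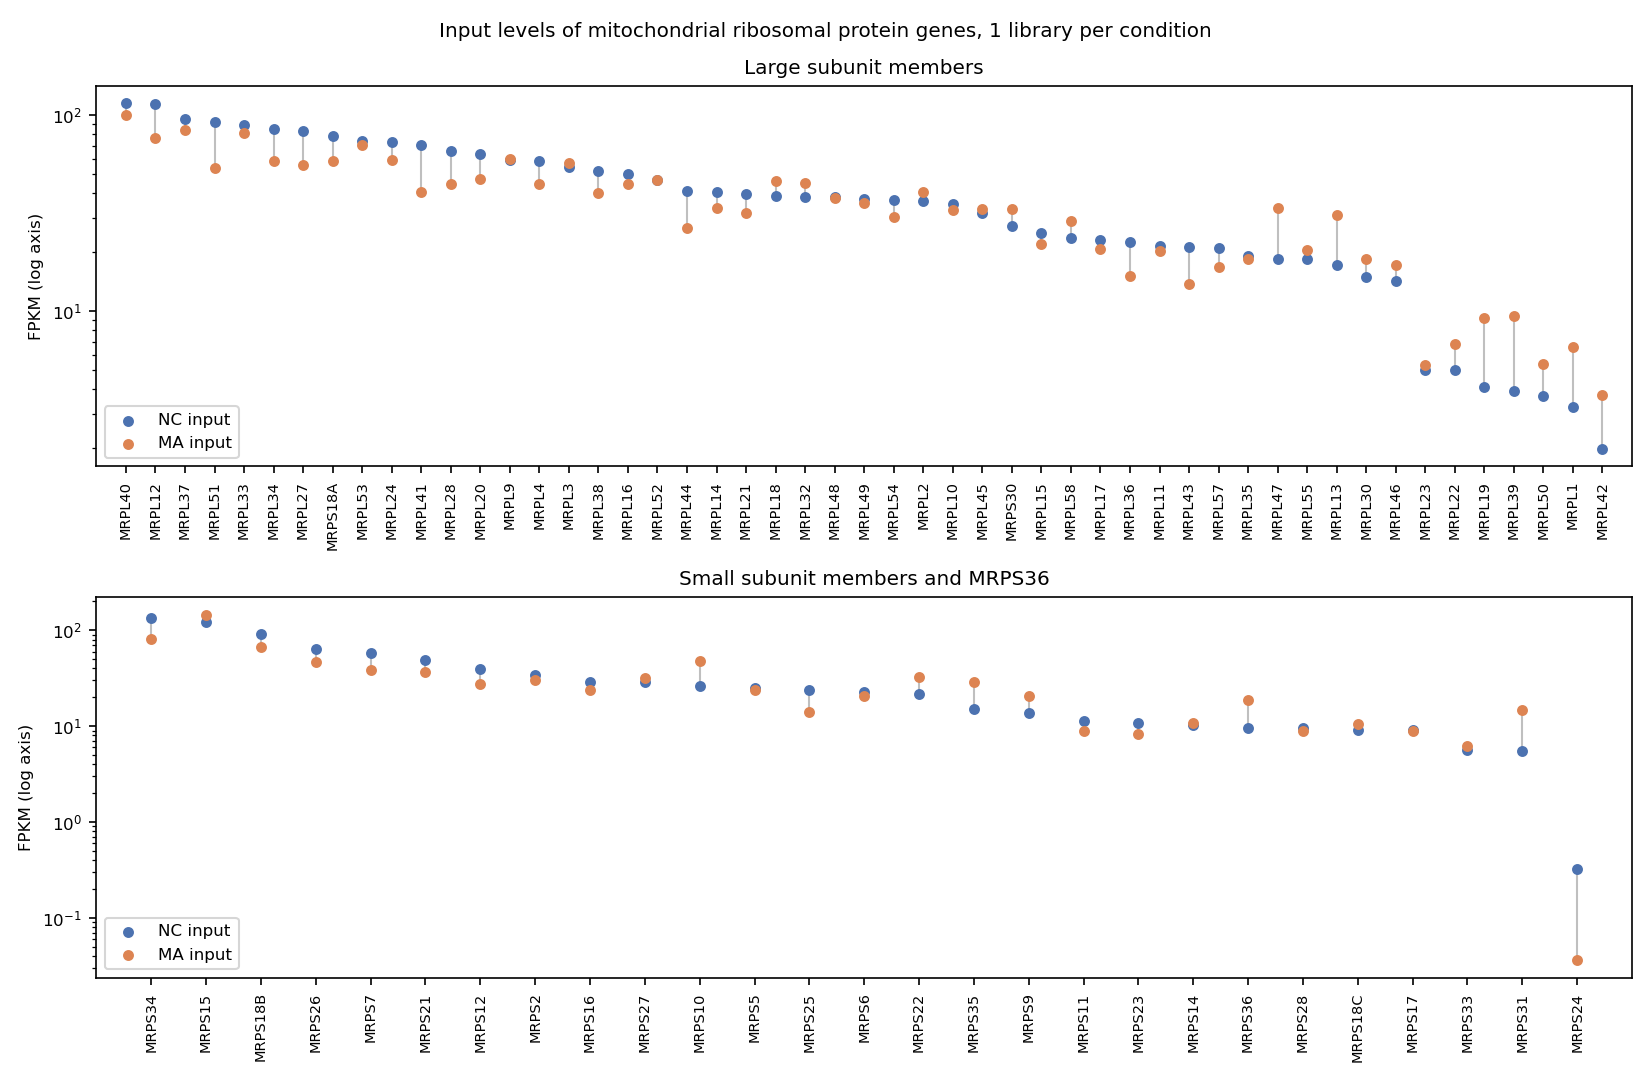
Input level of each of the 78 members in FPKM (vertical axis, log scale), ordered by the NC level within each subunit (horizontal axis), with 1 library per condition and a grey line joining NC (blue) and MA (orange). The most abundant members lie mostly lower in MA, the low large subunit members from MRPL22 to MRPL42 lie higher in MA, and MRPS24 stands apart at the bottom. The NC level that sets the order is also part of the difference, so order and difference are not independent.

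The difference between the inputs was expressed as log2((MA FPKM + 1)/(NC FPKM + 1)), which understates the difference of low genes. Among the 77 tested members 3 were higher in MA by 2-fold or more, MRPS31, MRPL39 and MRPL19, and 0 were lower by 2-fold or more. Over all tested genes 10.3% were 2-fold or more higher and 2.98% were 2-fold or more lower, and the members' share of higher genes was 3.90% (exact interval 0.811 to 10.97%). That interval includes the background. The median difference of the members was -0.07, with quartiles of -0.37 and 0.24, against a median of 0.11 over all tested genes. Below 0 lay 45 members (58.4%) and 43.3% of all tested genes, and above 0 lay 32 members and 56.7% of all tested genes. In 53 members the difference lay within 0.5 of 0 in either direction.

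MRPS31, a mitochondria-specific protein of the head of the small subunit, was at 5.45 FPKM in NC and 14.6 in MA. Its difference was 1.28, and the log2 ratio without the added 1 FPKM had an exact 95% interval of 1.16 to 1.70 from 150 and 453 recovered reads. This was the largest difference among the 77 tested members on this scale.

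MRPL39, a mitochondria-specific protein of the large subunit, was at 3.94 FPKM in NC and 9.44 in MA. Its difference was 1.08 (interval of the ratio 1.11 to 1.42). MRPL19, a counterpart of bacterial L19, was at 4.12 FPKM in NC and 9.30 in MA, with a difference of 1.01 (1.08 to 1.27). Both lie just past the 2-fold line, and both rest on levels below 10 FPKM. These intervals come from minimum read numbers and cover counting error only.

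Just inside the 2-fold line lay a further group that was higher in MA. MRPS36, the member that is no ribosomal protein, was at 9.67 FPKM in NC and 18.7 in MA (difference 0.89). MRPS35 of the small subunit was at 15.2 and 28.6 FPKM (0.87), and MRPS10, a counterpart of bacterial S10, at 26.0 and 47.6 (0.85). In the large subunit MRPL1, the counterpart of the L1 stalk protein next to the tRNA exit site, was at 3.24 FPKM in NC and 6.56 in MA (0.83). MRPL47 was at 18.5 and 33.6 FPKM (0.82), and MRPL13 at 17.3 and 31.2 (0.81). MRPL47 overlaps ACTL6A in RefSeq, and without knowledge of the strand of counting their reads cannot be told apart. MRPL42, at the levels given above, had a difference of 0.67. MRPS22 and MRPS9 were the next of the small subunit, at 21.8 and 13.8 FPKM in NC and 32.6 and 20.6 in MA, with differences of 0.56 and 0.54.

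The lower members reached no 2-fold difference. MRPL41, a mitochondria-specific large subunit protein, was at 70.3 FPKM in NC and 40.5 in MA, a difference of -0.78 (interval of the ratio -0.91 to -0.68). MRPL51 had a difference of -0.76 from the levels given above, and MRPL44, a protein with a ribonuclease III-like fold, was at 41.3 FPKM in NC and 26.5 in MA (-0.62). MRPL43 and MRPL27 were at 21.2 and 83.6 FPKM in NC and at 13.8 and 55.6 in MA (both -0.58). These were the 5 lowest differences of the large subunit, and MRPL27 is a counterpart of bacterial L27. MRPL28, at 65.7 FPKM in NC and 44.7 in MA, and MRPL12 were close behind, with differences of -0.54 and -0.57.

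In the small subunit MRPS25 was at 24.0 FPKM in NC and 13.9 in MA (difference -0.74), and MRPS34 had the same rounded difference of -0.74. MRPS7 (-0.57), MRPS12 (-0.50) and MRPS26 (-0.45) followed. MRPS12, the counterpart of bacterial S12 at the decoding site, was at 39.1 FPKM in NC and 27.3 in MA. MRPS25 overlaps NR2C2, MRPS34 overlaps EME2, and MRPS7 overlaps GGA3 and MIF4GD, so their values may hold reads of a neighbour. In all, 18 members overlap another protein-coding gene in RefSeq, and RefSeq lists 106 pseudogenes named after members whose share of reads is not known here.

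The MRPS18 family gives 3 paralogs related to bacterial S18, with different places in the particle. In the division used here only MRPS18C counts as the bacterial counterpart, and MRPS18A and MRPS18B count as mitochondria-specific. MRPS18A, in the large subunit, was at 78.6 FPKM in NC and 58.8 in MA (difference -0.41). MRPS18B, in the small subunit, was at 90.4 and 66.6 FPKM (-0.43). MRPS18C, also in the small subunit, was at 9.20 and 10.6 FPKM (0.19), and its ratio interval of -0.03 to 0.45 includes 0. The paralogs in different subunits thus had like differences, and the lowest of the family was the one whose direction was within counting error. The other 33 members lay between 5.00 and 85.5 FPKM in NC and between 5.32 and 70.3 in MA, with differences from -0.54 to 0.38, 13 of them above 0 and 20 below.

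The subunits had nearly the same distribution of differences. The large subunit had a median of -0.09, with 21 of 51 members above 0 and 30 below, and the small subunit a median of -0.07, with 10 of 25 above 0 and 15 below. The 45 tested members with a bacterial counterpart had a median of -0.09 and the 31 mitochondria-specific ones a median of -0.07. With the differences centred on the median gene, 26 of the 77 lay above it and 51 below, and 6 members changed direction. Of the 45 members chosen by the naming rule given below, MRPL52 and MRPS14 were among them. Under rescaling to TPM, which gives both inputs the same sum, MRPL35 and MRPS17 were the 2 of these 45 that changed direction. Directions of the other members under TPM are not given here.

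The members differed by level. They were split by mean FPKM into 3 groups of about equal size. Below 21.3 FPKM the median difference was 0.14 and 16 of 26 lay above 0. From there to 42.3 FPKM the median was -0.06, and at higher levels it was -0.40 with 5 of 26 above 0. Other genes in the same level ranges had medians of 0.18, -0.08 and -0.18. The order low to high was therefore found in other genes too, and the members of the highest group lay further below 0 than other genes at their level, without a test of that gap. Those other genes were not matched for length. In the highest group the median recovered length was 1017.5 bases for members and 2161.5 for other genes. Across the 77 members the difference and log2 mean FPKM had a Pearson's r of -0.52 and a Spearman's rho of -0.52, against -0.23 and -0.27 across 10562 genes. Both measures come from the same pair of values in the same libraries.

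Members are fairly abundant genes of short recovered length, and genes like them set a lower median than the table as a whole. The recovered length is the smallest that gives whole reads in both inputs, so a gene can be longer. MRPS12 has a recovered length of 123 bases and an MA peak of 495 exonic bases. Every length range used here and for the peaks is a range of this measure. Among 2678 other tested genes in the members' range of recovered length (598 to 3514 bases) and mean level (8.07 to 72.5 FPKM), from the 10th to the 90th percentile of the members, the median difference was -0.05. Of these 186 were 2-fold or more higher and 96 were 2-fold or more lower. The members' median of -0.07 was close to this value. What sets the level and length dependence of the differences was not tested.

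**Figure D3:**
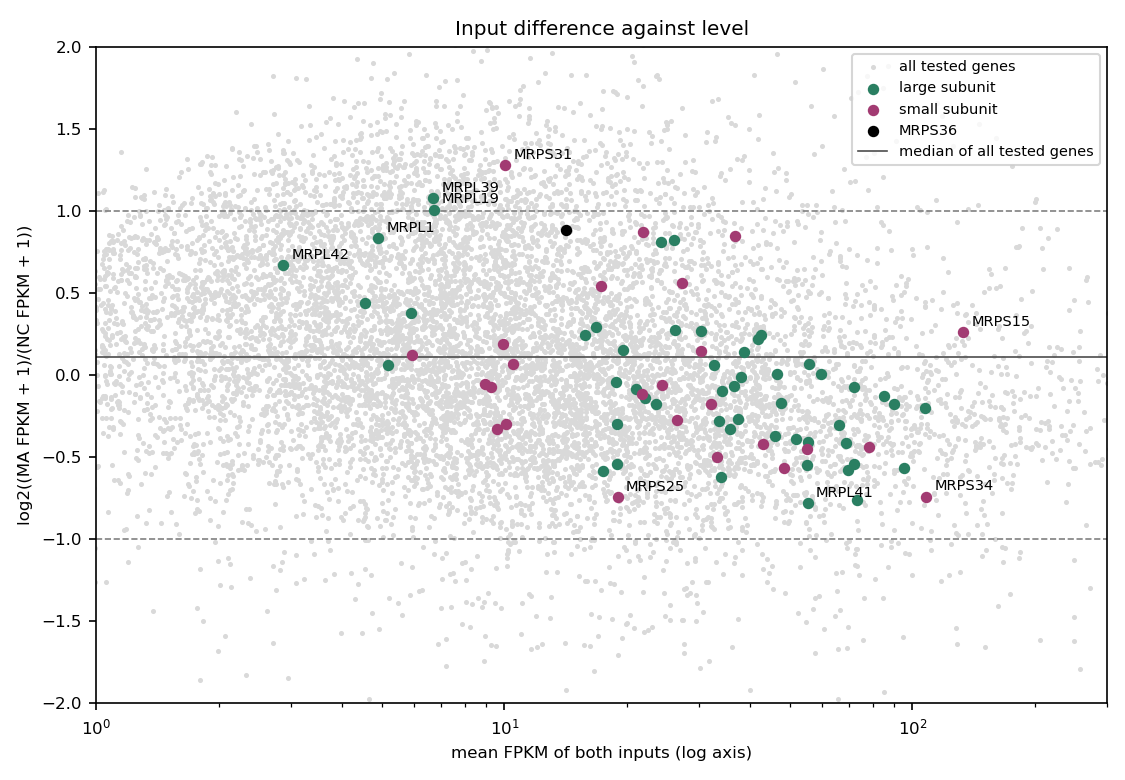
Difference between the inputs, log2((MA FPKM + 1)/(NC FPKM + 1)) (vertical axis), against the mean FPKM of both inputs (horizontal axis, log scale) for tested members by subunit and all tested genes (grey). Members fall from above 0 at low levels to below 0 at high levels, only MRPS31, MRPL39 and MRPL19 pass the upper dashed 2-fold line, and MRPS15 is an abundant member above 0.

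Members were also divided by the promoter motifs described above. The 20 tested members with the YY1 core had a median difference of 0.03 and the 49 without it a median of -0.13. For the ETS core the 30 members with it had a median of -0.19 and the 39 without it -0.06. Neither gap was tested. Members with the ETS core had a median level of 42.8 FPKM in NC, against 24.0 in those without it, so level and motif move together here and their parts were not tested.

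Other genes of mitochondrial translation were taken from a list of 61, all tested, that holds factors, synthetases, assembly proteins and subunits outside the symbol rule. Their median difference was 0.07, with 1 gene 2-fold or more higher and 1 lower. METTL15, which methylates the small subunit rRNA, was at 0.893 FPKM in NC and 3.98 in MA (difference 1.40). AARS2, the mitochondrial alanyl-tRNA synthetase, was at 50.5 FPKM in NC and 22.9 in MA (-1.11). The sign of the median of this list is not firm, since it was -0.01 for genes at 5 FPKM or more and -0.04 after centring on the median gene.

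By role, the 17 mitochondrial aminoacyl-tRNA synthetases, which charge the mitochondrial tRNAs, had a median of -0.26 with 7 above 0. After AARS2 the lowest were NARS2, at 33.1 FPKM in NC and 16.6 in MA (-0.95), and VARS2, at 36.4 and 19.4 (-0.87). The 13 translation factors had a median of 0.31, with 11 above 0 and none 2-fold or more higher. The 6 genes of mitochondrial transcription and mRNA handling had a median of 0.49, with 5 above 0 and 1 below. The highest was TFAM, which packages mitochondrial DNA and starts its transcription, at 2.66 FPKM in NC and 5.90 in MA (0.92). The 20 assembly genes had a median of -0.05, and the highest after METTL15 was the GTPase GTPBP10, at 1.72 and 4.29 FPKM (0.96). The 5 ribosomal subunits named outside the rule, DAP3, PTCD3, CHCHD1, AURKAIP1 and GADD45GIP1, had a median of -0.14, beside the members' -0.07. The groups are small, and no difference between them was tested.

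**Figure D4:**
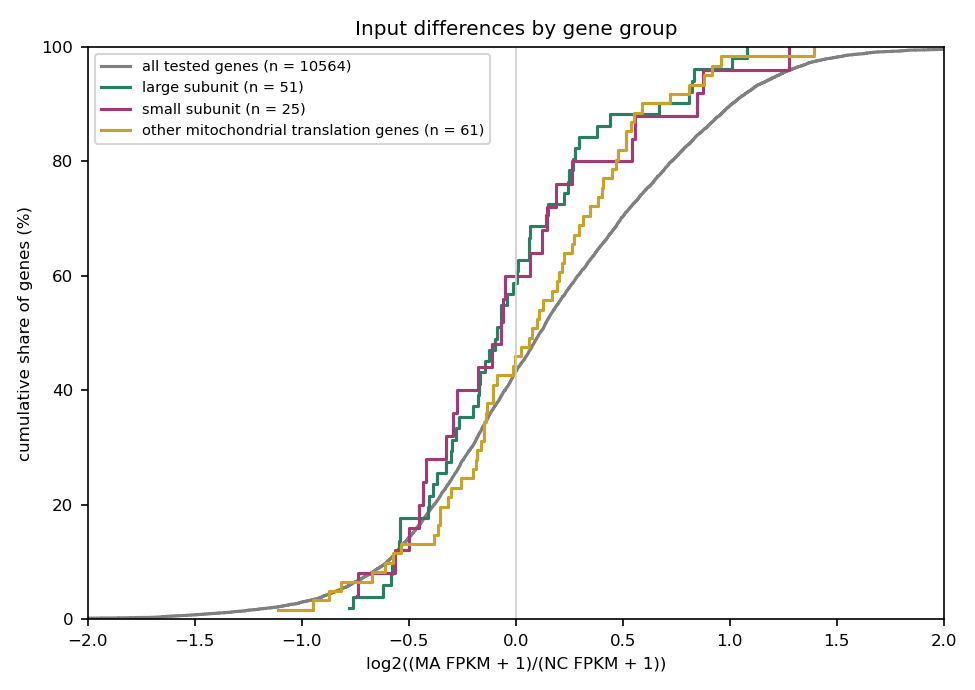
Cumulative share of genes (vertical axis, %) by difference between the inputs, log2((MA FPKM + 1)/(NC FPKM + 1)) (horizontal axis), for 51 large subunit members, 25 tested small subunit members, 61 other mitochondrial translation genes and 10564 tested genes. The curves of both subunits run close together, and above 0 they lie to the left of the curve of all tested genes.

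The m6A peak lists give regions where the pulled-down library exceeded its input. In NC 61 of 78 members had at least 1 peak (78.2%, exact interval 67.4 to 86.8%), and in MA 63 had one (80.8%, 70.3 to 88.8%). Among all 14416 genes 65.3% had an NC peak and 62.3% an MA peak, and among tested genes 83.3% and 80% did. Among the 2678 other genes in the members' length and level range the shares were 79.1% and 74.6%. Both intervals of the members include these shares. The large subunit had an NC peak in 39 of 51 members and the small subunit in 22 of 26, and in MA the numbers were 40 and 23.

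Peaks in both lists were found in 56 members (71.8%), against 58.3% of all genes and 70.9% of genes in the same length and level range. In 10 members (12.8%) neither list held a peak. The same was true of 17.3% of genes in the same length and level range and of 4441 of all 14416 genes. The 10 members were MRPL3, MRPL11, MRPL13, MRPL21, MRPL23, MRPL37, MRPL48, MRPL55, MRPS18C and MRPS36. Among these are MRPL37, one of the most abundant members, and MRPL3 and MRPL11, counterparts of bacterial proteins near the peptidyl transferase centre and at the stalk base. A missing peak says only that none passed the authors' threshold in that library.

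The NC list held 91 member peaks and the MA list 79, of 22067 and 19929 peaks in all. A single peak was found in 41 members in NC and 55 in MA. The share of all genes with a single peak is not given here, and the MA list is the smaller one for all genes too. In NC 55 of the 91 peaks lay in the 3' UTR (60.4%, interval 49.6 to 70.5%), against 42.1% of all NC peaks and 44.8% of the peaks of other genes in the length and level range. In MA 41 of 79 lay there (51.9%, 40.4 to 63.3%), against 42.8% of all MA peaks and 46.9% of the peaks of such genes. The NC interval thus lies above the share of both comparison sets, and the MA interval includes them. Peaks of 1 gene share their transcript, so the intervals are too narrow. Counted by gene, 46 members had a 3' UTR peak in NC and 38 in MA. The same counts over all genes or over genes of like length and level are not given here. These numbers therefore show neither an excess by gene nor a change between the lists. Peaks annotated to other exons made up 17 of 91 in NC (18.7%, interval 11.3 to 28.2%), against 33.8% of all peaks and 24.5% of the peaks of genes in the length and level range. In MA they made up 19 of 79 (24.1%, interval 15.1 to 35.0%), against 34.0% and 25.5%. Those in the 5' UTR numbered 9 and 10, those at the stop codon 6 and 5, and those at the start codon 4 in each list.

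The median fold enrichment of member peaks was below that of all peaks in each list, as was that of genes of like length and level. The authors' fold enrichment of pulled-down over input RNA had a median of 2.89 over member peaks in the NC list, where all peaks had 3.57 and peaks of other genes in the length and level range 3.00. In the MA list the medians were 2.39 for members, 3.07 for all peaks and 2.64 for such genes. A fold enrichment of 3 or more was reached by 44 of the 91 NC member peaks (48.4%), by 65.5% of all NC peaks and by 52.5% of those of genes in the length and level range. In MA it was reached by 22 of the 79 member peaks (27.8%), by 55.8% of all peaks and by 39.7% of those of such genes. Fold enrichments were read only within their list.

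After peaks that touch or overlap were merged, 66 of 91 member regions of the NC list overlapped an MA region on the same strand (72.5%, interval 62.2 to 81.4%), and 73.8% of all NC regions did. Of the MA member regions 67 of 79 overlapped an NC region (84.8%, 75.0 to 91.9%), and 79.6% of all MA regions did. Both intervals include the share of all regions. Within the NC list the shared member peaks had a median fold enrichment of 3.01 and the unshared ones of 2.00, and within the MA list the medians were 2.45 and 1.69.

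The strongest member peak of the NC list, at a fold enrichment of 13, lay in the 3' UTR of MRPL17, a counterpart of bacterial L17, at chr11:6681905-6682199 (GRCh38.p13, minus strand). The MA list holds an overlapping peak at chr11:6682003-6682297 with a fold enrichment of 3.07 in its own list. MRPS11, a counterpart of bacterial S11 on the platform of the small subunit, had a 5' UTR peak in NC at chr15:88468431-88468630 (8.00) and one with the same start in MA. MRPL35 had a 3' UTR peak at chr2:86212116-86212807 in NC (7.56) and an overlapping one at chr2:86212215-86212857 in MA (8.00), the second strongest of the members there. MRPL1 had an exon peak in NC at chr4:77883279-77883478 (7.5) that overlaps an MA region. Each of these strong peaks thus has a partner in the other list.

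In the MA list the strongest member peak lay in an exon assigned to MRPS25 at chr3:15042400-15042650 (10.2), and the NC list has a peak with the same start (7.00). MRPS25 had 7 peaks in NC and 8 in MA, more than any other member, and it overlaps NR2C2, so some of these may belong to the neighbour. A 3' UTR peak of MRPS25 at chr3:15049336-15049535 (4.40) was also among the 5 strongest. MRPS30, a large subunit protein, had a 3' UTR peak at chr5:44814915-44815314 in MA (7.00) and one at chr5:44814965-44815314 in NC (5.25). MRPL36, a counterpart of the small bacterial protein L36, had one at chr5:1798434-1798778 in MA (4.35) and one with the same start in NC (3.47). Of the 3 members that were 2-fold or more higher in the MA input, MRPS31 and MRPL19 had a shared region in both lists.

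**Figure D5:**
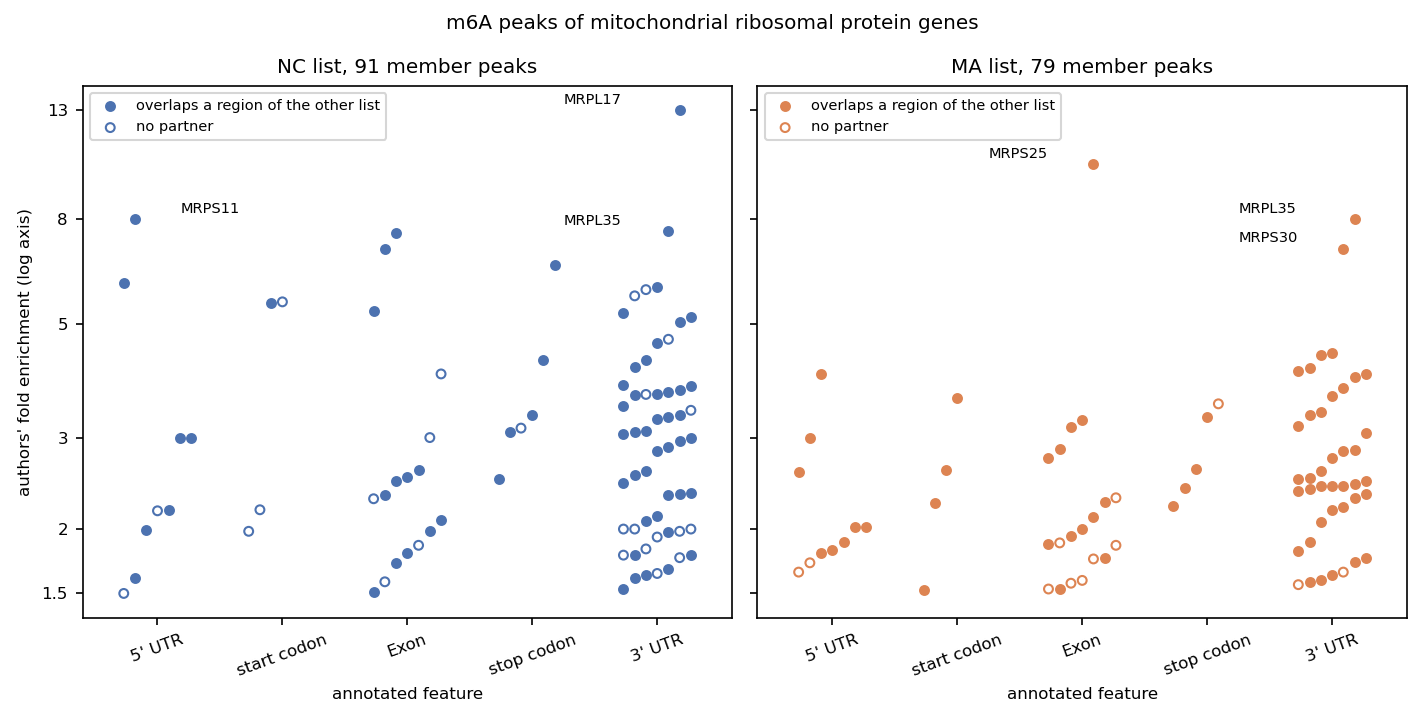
Authors' fold enrichment of each member peak (vertical axis, log scale) by annotated feature (horizontal axis), in the NC list (left, 91 peaks) and the MA list (right, 79 peaks), filled where the peak overlaps a region of the other list. Most peaks lie in the 3' UTR in both lists, and the strongest peaks are filled; values are compared within a list only.

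A peak in the NC list alone was found in 5 members (6.41%, against 6.92% of all genes): MRPL10, MRPL20, MRPL52, MRPS7 and MRPS14. MRPL10, a counterpart of the stalk base protein L10, had a 3' UTR peak at chr17:47824010-47824306 with a fold enrichment of 3.65, with the input at 35.3 FPKM for NC and 32.9 for MA. MRPL52, a mitochondria-specific protein, had a stop codon peak at chr14:22834201-22834496 (3.14) at 46.6 and 46.8 FPKM. MRPS14, a counterpart of bacterial S14, had 3 peaks in NC and none in MA, with fold enrichments of 1.78, 4.67 and 4.00, at 10.2 FPKM in NC and 10.8 in MA. The strongest of these lay in the 3' UTR at chr1:175013546-175013938. In these 3 members the input levels of the conditions were close together. MRPL20 and MRPS7 had weaker 3' UTR peaks, of 1.83 and 1.76, and both were lower in the MA input, MRPL20 at 63.3 FPKM in NC and 47.6 in MA.

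A peak in the MA list alone was found in 7 members (8.97%, interval 3.68 to 17.6%, against 3.94% of all genes): MRPL28, MRPL39, MRPL42, MRPL47, MRPS6, MRPS10 and MRPS24. Their fold enrichments ran from 1.56 in MRPS24 to 1.88 in MRPS10, so all of them were near the lowest value of the list, 1.50. The 6 that were tested had a median input difference of 0.75, and MRPL39, MRPL42, MRPL47 and MRPS10 were higher in the MA input. Over all tested genes with a peak in MA alone the median was 0.39, and over those with a peak in NC alone it was -0.10, as it was for the 5 members of that kind. Level and presence of a peak move together here, and their parts were not tested. MRPS6, at 22.6 FPKM in NC and 20.8 in MA, overlaps SLC5A3, and the MA peak of MRPS24 lies in a gene with 1 recovered read in that input.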

How the data were processed

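The authors deposited FPKM values of the input libraries and, per condition, a peak list with fold enrichment (a ratio), p-value and false discovery rate, per the file headers. Tools named in the submitters' processing notes are ChIPseeker, deepTools, HISAT, HISAT2 and Trimmomatic, with the build GRCh38.p13. Not given in the sources used here are the peak caller, its thresholds, the read counter, its use of strand and the annotation release.

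Members and lists were chosen with earlier results of these data known. For the inputs, 1 FPKM was added to both values before the log2 ratio of MA to NC was taken, and genes had to reach 1 FPKM in MA or NC. Reads were recovered as the smallest whole numbers behind both FPKM values (99.98% of 13055 genes above 0 in both inputs, within 0.0001 reads). Exact 95% intervals from them cover counting error only, and reads copied by PCR and not marked by molecular identifiers are no independent molecules. Repeated peak rows (132 in NC, 99 in MA) were dropped, starts were raised by 1, and regions were shared when they overlapped by at least 1 bp on the same strand, introns included. Subunits were assigned by nomenclature. Named members are the 5 highest and 5 lowest differences per subunit at 5 FPKM or more, those at 2-fold or beyond, the 5 highest and 3 lowest levels per subunit, those with a peak in a single list, the 5 strongest peaks per list, the MRPS18 genes and MRPS36. Of the 61 other mitochondrial translation genes, those at 2-fold or beyond and the 3 highest and 3 lowest are named. Motifs were searched on both strands of RefSeq windows (GRCh38.p14), without peak sequences. Python 3.11.15, pandas 2.3.3, NumPy 2.4.6 and SciPy 1.17.1 were used, and the calculations were tested on simulated data.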

Additional observations from a re-analysis of the deposited data

How the results depend on the processing

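With 1 library per condition, no setting gives a replicate check. No paired analysis was possible because each group holds 1 sample. The count of members 2-fold or more higher in MA, 3 as reported, was 0 with a pseudocount of 5 FPKM, 1 (MRPS31) after rescaling to a median difference of 0, and 4 with TPM, and it was 3 with a pseudocount of 0.1 FPKM, with both other filters on low values and by the exact interval of the ratio, an alternative chosen after seeing the data. The count of members 2-fold or more lower was 0 in each of these settings except the interval, which was not run for it. Over all genes 1801 were higher and 450 lower with a pseudocount of 0.1 FPKM, and 273 and 154 with one of 5 FPKM. After rescaling, 756 were higher and 439 lower, and with TPM 1793 and 315. Rescaling to a median difference of 0 moved every difference by 0.11, and the members' median became -0.18. With TPM the members' median was -0.001 and that of all tested genes 0.20. How far the members' median lies below 0 thus depends on the scaling. Directions were kept by 45 of 45 named members with the other pseudocounts and by 43 of 45 with each rescaling.

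With a fold enrichment of 3 or more, 37 members had an NC peak and 19 an MA peak. Of all peaks, 65.5% in the NC list and 55.8% in the MA list reached that value. Fold enrichments belong to their own list, so the 2 counts are not a measure of change. Shares of all genes and of all regions under the settings of this paragraph are not given here. The share of NC member regions with an MA partner was 56.0% at an overlap of 50% of both regions, 40.9% at a fold enrichment of 3 or more, and 61.8% for peaks within 1 exon, chosen after seeing the data. The share of MA member regions with an NC partner was 64.6% at an overlap of 50%. At a fold enrichment of 3 or more that MA share was 81.8%, and for peaks within 1 exon it was 83.7%. With equal peak numbers in both lists it was 68.4% and the NC share was 79.1%, so that the NC share was then the higher one. The lists give no exon blocks, so an overlap of exonic bases was not run. The cause of these shifts was not tested. Depth limits the low members most, MRPS24 with 8 and 1 recovered reads.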
